A study of Drosophila melanogaster with 10 samples.

Results

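The genes described here encode the subunits of the vacuolar ATPase (V-ATPase) of Drosophila melanogaster. They were taken as the protein-coding genes of the RefSeq Release 6 (dm6) gene table whose symbol starts with Vha, which gave 33 of the 13922 protein-coding genes on chromosomes 2L, 2R, 3L, 3R, X, and 4. The question asked of the data was which of these genes, and which copy where a subunit has several, lie next to open chromatin in S2 cells, a Drosophila cultured cell line of hemocyte-like character. Open chromatin was measured by ATAC-seq, in which the Tn5 transposase inserts sequencing adapters into DNA that is not covered by nucleosomes.

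The cells had been kept with double-stranded RNA for 5 days. There were 2 libraries each of GAF RNAi (against GAGA factor), BAP170 RNAi (against a subunit of the PBAP remodeling complex), NURF301 RNAi (against the large subunit of the NURF remodeling complex), combined NURF301+BAP170 RNAi, and LacZ RNAi, the control, whose target is a bacterial gene that flies lack. The list of peak summits was called on all 10 libraries together. It therefore holds no value for a single library, so RNAi groups could not be compared, no replicate error could be given, and the depth behind each summit is unknown. All numbers below describe the mixture of knockdown and control cells.

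The V-ATPase is a rotary proton pump of lysosomes, endosomes, secretory vesicles, and some plasma membranes. Its V1 sector, on the cytoplasmic side, is built of subunits A to H and hydrolyzes ATP. Its V0 sector, in the membrane, holds the proton path between subunit a and a ring of subunits c and c'', together with subunits d and e and the accessory subunit AC45. The acid it makes drives lysosomal degradation, and at the lysosome surface the pump also takes part in amino acid signaling to the mTORC1 kinase. Flies carry several gene copies for many of the subunits, and in mammals the copies of subunit a direct the pump to different membranes.

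The list held 39806 summits of 1 bp each in 15615 peaks. Each summit has a score, −log10 of the q value of the peak caller, which ran from 1.30 to 80130 with a median of 21.9. A gene was called open when 1 or more summits lay within 500 bp of either end of its annotated span, and its level was taken as the strongest of those scores. The gene table gives no strand, so the start and the end of a gene cannot be told apart, and ends are named here as the lower or the upper end of the span by coordinate. For most values of the Vha genes, and for the median strongest scores of gene groups, 2 readings are given where they differ. The first counts any summit within 500 bp. The second counts only summits whose nearest coding-gene end is that of the gene itself, called its own summits. A value with no reading named counts any summit, and can differ by own summits. The score rises with sequencing depth and DNA copy number as well as with accessibility, and a summit says nothing about transcription.

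Of the 33 Vha genes, 22 (66.7%) were open, against 60.0% of all protein-coding genes. Own summits were found at 20 of the 33, against 53.0% of all protein-coding genes. The shares of open genes were thus near those of the whole gene set, and no test was run on them. The levels of the open genes lay higher in the list. The median strongest score was 181 for the 22 open Vha genes (lower quartile 112, upper quartile 232), against 103 for all open genes. By own summits the medians were closer, 123 for Vha genes and 83.7 for all protein-coding genes with one. By any summit, the strongest score exceeded 103, the median of all open genes, at 17 of the 33 Vha genes. The share among all protein-coding genes was 30.0%, which follows from the 60.0% that were open, since the cutoff is their median. Neither was counted by own summits. By any summit, no Vha gene had a strongest score under 25, a range that held 10.5% of all protein-coding genes. Between 200 and 400 lay 9 of the 33, a range that held 11.9% of all. By own summits, VhaAC39-2 (24.6) and VhaM9.7-a (21.7) fell under 25. Only Vha68-2 (229), VhaAC39-1 (211), VhaM9.7-b (249), and VhaPPA1-1 (320) then lay between 200 and 400. Open Vha genes had a median of 4 summits within 500 bp, against 2 for all open genes. Both medians include summits nearer to a neighboring gene, and were not taken by own summits alone.

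**Figure D1:**
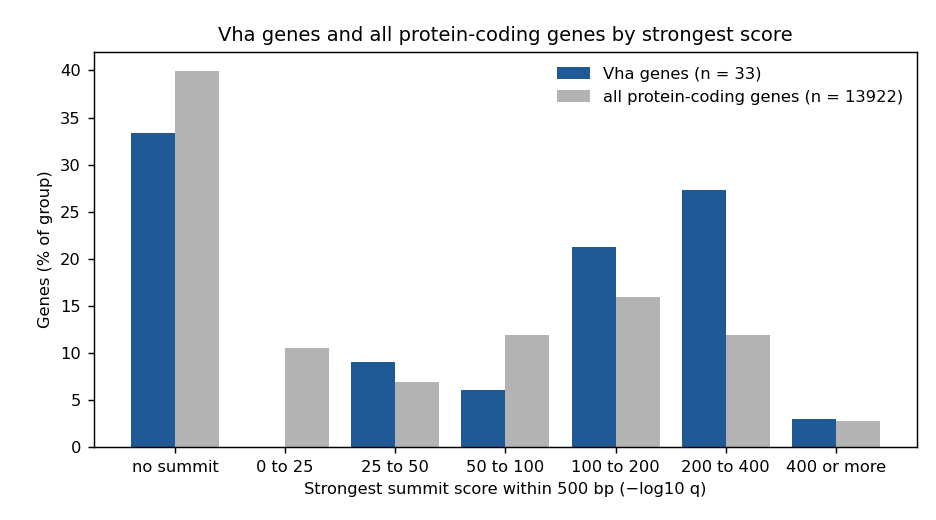
Percent of genes (y axis) in each band of strongest summit score within 500 bp, in −log10 q (x axis), for the 33 Vha genes (blue, left bars) and all 13922 protein-coding genes (gray, right bars). Vha genes are absent from the 0 to 25 band and their largest band with a summit is 200 to 400, with 9 genes. The bands count any summit, and by own summits VhaAC39-2 and VhaM9.7-a would fall under 25.

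The open genes were spread over both sectors, and the shares below stand beside 60.0% open among all protein-coding genes. Of the 13 genes for V1 subunits, 10 (76.9%) were open, with a median strongest score of 159. Of the 20 genes for V0 and accessory subunits, 12 (60.0%) were open, with a median of 197. By own summits this order turned round, with a median of 131 over 10 genes for V1 and 109 over 10 genes for V0 and accessory subunits. The 5 subunits with a single gene were all open (median 159). Of the 28 genes that belong to a family of copies, 17 (60.7%) were open (median 183), near the all-gene share. By own summits this order also turned round, with a median of 158 for the 5 single-copy genes and 123 for 15 of the 28 copies. Each of the 9 subunits with several copies had at least 1 open copy. Exactly 1 copy was open for 3 of them, namely F, c'', and AC45, and 2 or more copies were open for the other 6. Every copy was open for 1 subunit only, subunit d. By own summits, subunit c also had exactly 1 open copy.

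**Figure D2:**
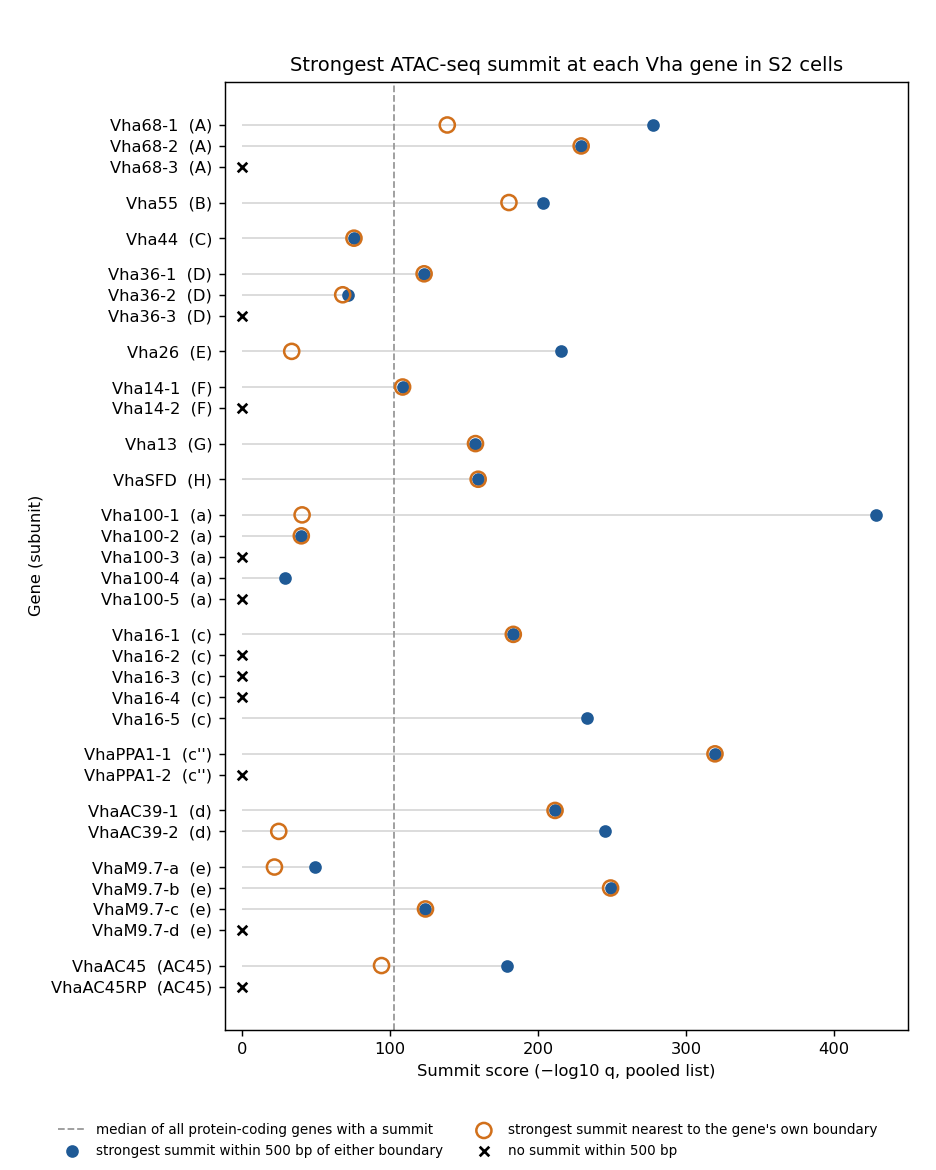
Strongest summit score in −log10 q (x axis) at each of the 33 Vha genes, grouped by subunit (y axis), for any summit within 500 bp (filled circles), for summits nearest to the gene's own end (open circles), and for genes with no summit (crosses, drawn at 0). The dashed line is the median of all open protein-coding genes, 103. Vha100-1 has the highest filled circle, 428, while its open circle is at 40.4.

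The single-copy V1 subunits were open, at levels that differed between the genes. Vha55 encodes subunit B, which forms the hexameric head of V1 together with subunit A, and spans 3R from 12623762 to 12627829. Its own strongest summit had a score of 180, 24 bp beyond its upper end. A stronger summit of 203 lay 160 bp beyond that end but only 42 bp from Snx3, a sorting nexin gene. All summits within 500 bp of Vha55 lay beyond the upper end, toward Snx3.

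Vha44 encodes subunit C, which clamps the head to the membrane sector and is released when the pump disassembles. It is the longest Vha gene, 11825 bp on 2R from 16324813 to 16336637, and had the lowest strongest score of the single-copy genes by any summit, though not by own summits, where Vha26 was lower. Its own summits of 75.4, 52.6, and 47.6 all lay at the upper end, the strongest 8 bp beyond it. The gene Hmgs overlaps that end, and all of these summits, inside Vha44 or beyond it, lie within the span of Hmgs.

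Vha26 encodes subunit E, part of the stalks that hold the head in place, and spans 3R from 5591763 to 5595356. Its strongest summit, 215, was 209 bp beyond the lower end and 95 bp from the splicing gene noi. The strongest of its own summits reached only 33.3, 430 bp inside the gene. Beyond the upper end were only summits of 1.62 and 1.46, both nearer to kra. Vha26 is therefore a strong or a weak case depending on which gene the shared summit is counted for.

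Vha13 encodes subunit G, the partner of E in the stalks, and spans 3R from 19643018 to 19644386. Its strongest summit was its own, 158, and lay 99 bp inside the upper end. It had 7 summits within 500 bp, the largest number of any Vha gene, of which 3 were nearer to subdued, a gene for an anoctamin channel. VhaSFD encodes subunit H, which restrains ATP hydrolysis in free V1, and spans 2L from 16722883 to 16727826. A single strong summit of 159 stood 57 bp inside its upper end, and the other 3, beyond that end, had scores of 2.92, 3.89, and 8.24.

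Subunit A carries the catalytic sites for ATP, and its 3 genes lie close together on 2L. Vha68-2 (12974322 to 12978607) had 3 summits at its lower end, all its own, of 145, 160, and 229. A further summit of 231 lay 617 bp inside the same end, just beyond the 500 bp counted. Vha68-3 (12978786 to 12981293) begins 178 bp after Vha68-2 and had none, with its nearest summit 3847 bp away. Vha68-1 (13000770 to 13004107) lies 19476 bp further on and was open at both ends. At its upper end stood its own summits of 138.5, 96.6, and 30.3. The strongest within 500 bp, 277, was 159 bp beyond the lower end but 24 bp from Yip1d1. Another of 182 was 80 bp from mTor, the kinase gene 372 bp from Vha68-1. By own summits the order of the open copies turned round, with 229 at Vha68-2 and 138.5 at Vha68-1. With either count Vha68-1 and Vha68-2 were open and the copy between them was not.

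Subunit D is the central shaft that turns inside the head. Vha36-1 (2R, 15541435 to 15542498) was open at both ends. Its strongest summit, 123, was 6 bp beyond the upper end, and summits of 86.2 and 80.2 lay beyond the lower end, the first of them nearer to CG8187. Vha36-2 (2R, 12257282 to 12258652) was weaker. Its strongest summit was 71.2, 429 bp beyond the upper end and nearer to Cam, the calmodulin gene, and its own reached 67.8 at 286 bp. Vha36-3 (X, 2579091 to 2580560) had none, and the nearest, 1216 bp away, had a score of only 2.33. The copies of subunit D thus ranked in the order of their names, with no replicate error to set against the differences.

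Subunit F also sits in the central shaft. Vha14-1 (2R, 15679426 to 15680084), the shortest open Vha gene at 659 bp, had 5 summits within 500 bp. The strongest, 108, was its own and lay 37 bp beyond the upper end, while summits of 56.0 and 40.1 beyond the lower end were nearer to Gmppa. Vha14-2 (3R, 6122592 to 6124405) had the most remote nearest summit of any Vha gene, 46536 bp away. Vha14-1 was the only open copy of subunit F under every setting run.

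**Figure D3:**
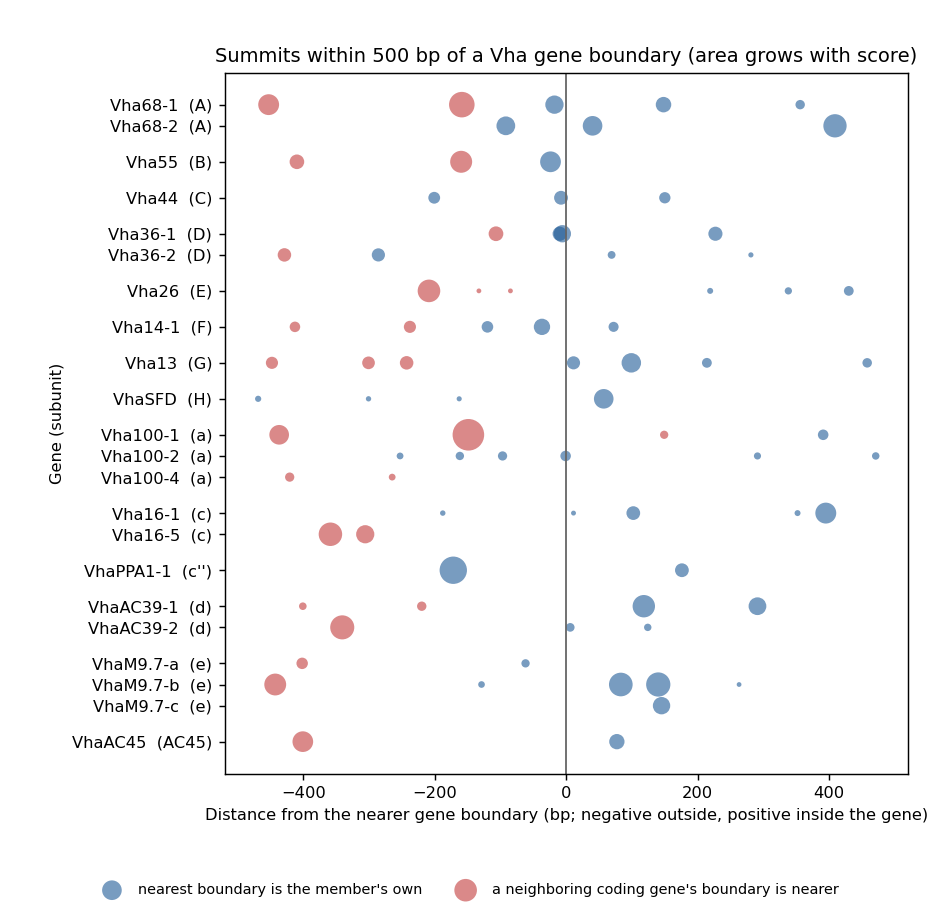
Distance in bp from the nearer gene end (x axis, negative outside the gene and positive inside) of every summit within 500 bp of the 22 open Vha genes (y axis), with symbol area growing with score. Blue symbols are nearest to an end of the Vha gene and red ones are nearer to another coding gene. All summits of Vha16-5 and Vha100-4 are red.

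In V0, subunit a holds the channels through which protons enter and leave. Its copies ranged from no summit to the highest score of any Vha gene, a range that rests on a summit nearer to a neighbor. Vha100-1, known in flies for its part at synapses, spans 3R from 29131193 to 29137980 and has 10 annotated transcripts, the most of any open Vha gene. It had the highest strongest score of all, 428, which exceeded that of 96.3% of open protein-coding genes. That summit was 149 bp beyond its lower end and 72 bp from dgt6, an augmin gene that lies 220 bp away. Its upper end overlaps Alg13, a glycosylation gene, which was nearer to a summit of 160. The only own summit of Vha100-1 was one of 40.4, 391 bp inside the gene. Its rank at the top of the family thus belongs to a summit between a pair of genes, and which gene it serves was not tested.

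Vha100-4 (18386841 to 18389805) and Vha100-2 (18390323 to 18399169) stand side by side on 3R, 517 bp apart. The gap held 2 summits, of 29.0 and 11.6, which were counted for both genes and were nearer to Vha100-2. They were the only summits of Vha100-4, so by own summits that copy was not open. The other end of Vha100-4, which overlaps cona, had none. Vha100-2 had 6 summits within 500 bp, all its own, led by one of 39.8 only 1 bp beyond its upper end. That summit, one of 22.1 further out, and one of 15.9 inside the gene all lie within the span of Vti1b. Vti1b is a SNARE gene that overlaps the upper part of Vha100-2. Far stronger ones lay deeper in the gene. Of 15 summits inside Vha100-2, 13 were more than 500 bp from its ends, and the strongest reached 465 at position 18397023. That position lies within Vti1b and close to its lower end, which is at 18396995. The summits of 103.8, 199, and 134 next to it also fell in the span that the 2 genes share.

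**Figure D4:**
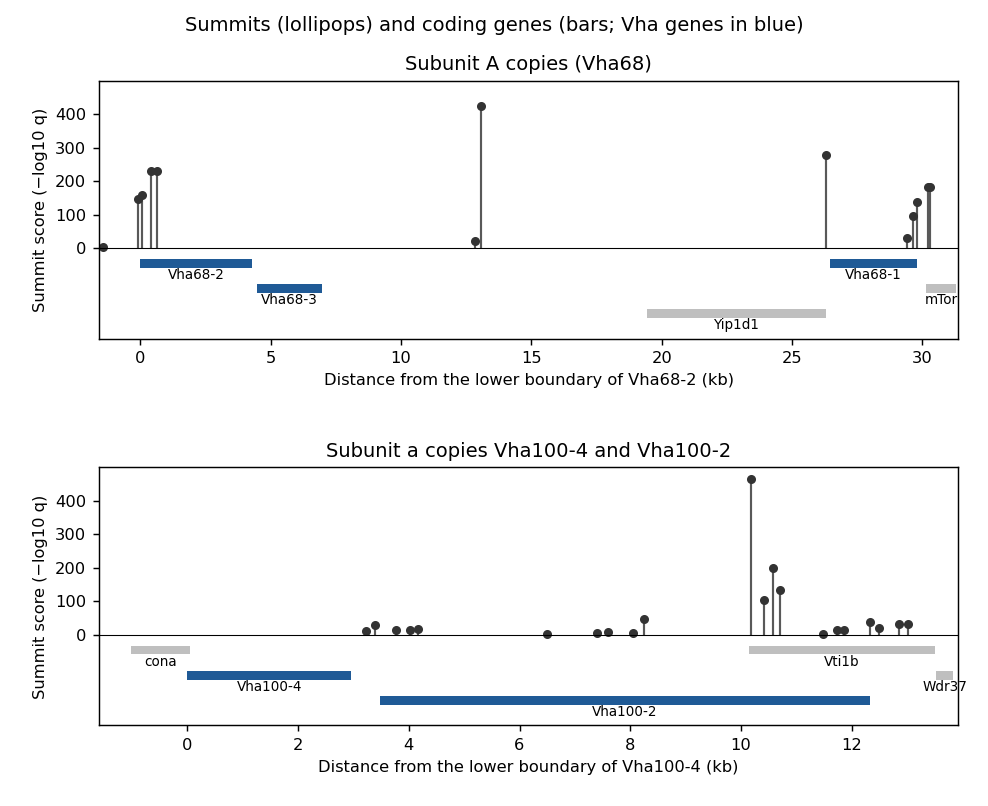
Summit scores in −log10 q (y axis, lollipops) along the Vha68 copies on 2L (top) and Vha100-4 with Vha100-2 on 3R (bottom), with distance in kb from the lower end of the first copy on the x axis. Blue bars are Vha genes and gray bars other coding genes. No lollipop stands at Vha68-3, and the tallest in the lower map, 465, stands where Vti1b overlaps Vha100-2.

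The remaining copies of subunit a had none. Vha100-3 (2R, 18908961 to 18911895) lies inside the gene sano, 44043 bp from the nearest summit. Vha100-5 (2L, 11738948 to 11744524), the longest Vha gene without a summit at 5577 bp, was 2636 bp from a summit with a score of 9.04.

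Subunit c is the proteolipid of the rotating ring. Vha16-1 (2R, 6625242 to 6633090) was open along much of its length, with 18 summits inside it. Its upper end had its own summits of 183 and 74.0, at 395 and 102 bp inside the gene. Its lower end had only weak ones, of 2.00, 4.38, and 7.07. A stronger summit of 288 stood at position 6632493, beyond the 500 bp counted, and one of 205 at 6631574. The summits of 288, 205, and 183 therefore lay in the part of the gene near its upper end. Summits of 85.7 and 88.5 stood further from that end, at positions 6628359 and 6630390.

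Vha16-5 (2L, 10736319 to 10737043) stands in a crowded stretch. A summit of 233, 359 bp beyond its upper end, was 57 bp from CG12299, and one of 137, 306 bp beyond its lower end, was 58 bp from Nup107, a nuclear pore gene. No summit was its own. Vha16-2 (3L, 11474958 to 11475552) and Vha16-3 (3L, 11473291 to 11473972), 985 bp apart, were 11816 and 13396 bp from the same nearest summit. Vha16-4 (2R, 16947658 to 16948224) was 3656 bp from its nearest summit. Vha16-1 was thus the only copy of subunit c with a summit of its own.

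Subunit c'' is a larger proteolipid of the same ring. VhaPPA1-1 (3R, 14902330 to 14904061) had the strongest own summit of all 33 genes, 320, at 172 bp beyond its upper end, with no other coding gene within 500 bp of it. A weaker summit of 74.7 lay 176 bp inside that end. VhaPPA1-2 (3R, 14899606 to 14900277) lies 2052 bp below it, with the ribosomal protein gene RpS5b between them. It overlaps CG3817 at its lower end. It had no summit within 500 bp, and its nearest, of 24.1, was 867 bp away.

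Subunit d joins the ring to the central shaft, and both of its genes were open. VhaAC39-1 (X, 3880748 to 3882967) had its own summits of 211 and 129, at 118 and 291 bp inside the lower end. Weaker ones of 30.0 and 16.7 beyond that end were nearer to CG2930. VhaAC39-2 (3R, 23158017 to 23159316) had a stronger one of 245, but 341 bp beyond its lower end and 186 bp from unk. Its own summits were 24.6, at 6 bp inside the gene, and 15.5. VhaAC39-1 was therefore the stronger copy by own summits and VhaAC39-2 the stronger by any summit.

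Subunit e is a small hydrophobic protein of V0. VhaM9.7-b (3L, 21539862 to 21541215) was the most open of its 4 genes, with its own summits of 249 and 237 at 140 and 83 bp inside the lower end. Another strong summit, of 201, was 28 bp from COX8, a cytochrome c oxidase gene. VhaM9.7-c (3L, 4186018 to 4186865) had a single summit of 124, 145 bp inside its upper end, and lies within the spans of CG18675 and Teh2. VhaM9.7-a (3L, 4262705 to 4263464) had one of 48.9 that was nearer to CG11586 and one of its own of 21.7. VhaM9.7-d (3R, 16975204 to 16975697), the shortest of all Vha genes at 494 bp, had its nearest summit 2398 bp away.

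The accessory subunit AC45 is a glycoprotein that associates with V0. VhaAC45 (2R, 9207561 to 9209774) had its own summit of 94.1, 77 bp inside its lower end. A stronger one of 179 was 401 bp beyond that end and 36 bp from Gnptab, whose product acts in the tagging of lysosomal enzymes. The related gene VhaAC45RP (3R, 30164692 to 30166419) had its nearest summit 8292 bp away.

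The 22 open Vha genes made 82 pairs of a gene and a summit, with 80 different summits from 29 peaks. The strongest summit of a gene lay 1 to 429 bp from its end, with a median of 159.5 bp. It was outside the gene span in 15 cases and inside it in 7. At 12 genes it was the gene's own, and at 10 it was nearer to a neighbor. Close spacing of genes went with summits over the whole genome. Another coding end lay within 500 bp for 71.0% of all protein-coding genes, of which 70.7% were open, against 34.0% of the other genes. Among Vha genes, another coding end lay within 500 bp for 17 of the 22 open genes and for 6 of the 11 without a summit.

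The 11 genes without a summit were clear of summits by a wide margin. None had a summit inside its span, and 10 of them had none within 1000 bp. Their nearest summit was a median of 3847 bp away. They were shorter than the open genes, with a median of 1470 bp against 2217 bp for open Vha genes, although the ranges overlapped (494 to 5577 bp against 659 to 11825 bp). The same held for all protein-coding genes, with a median of 1574 bp without a summit and 2621 bp with one. They had 1 to 3 annotated transcripts with a median of 1, while open Vha genes had up to 10 with a median of 2. Near the 500 bp limit, Vha16-5 was the last gene inside it, with its nearest summit at 306 bp, preceded by Vha100-4 at 265 bp. Just outside it were VhaPPA1-2 at 867 bp and Vha36-3 at 1216 bp.

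Genes whose products work with the V-ATPase were open in 16 of 16 cases, against 60.0% of all protein-coding genes, with a median strongest score of 105. Mitf encodes the transcription factor that activates V-ATPase and lysosome genes in flies, and had a score of 197. The genes for the rabconnectins, which help V1 and V0 assemble, differed, with 191 at Rbcn-3B and 8.56 at Rbcn-3A. Lamp1, which encodes a lysosomal membrane protein, had the highest score of the list, 606. The Rag GTPase genes, which bring mTORC1 to the lysosome, had 75.1 (RagA-B) and 81.0 (RagC-D), and mTor itself had 182, whereas its partner raptor had 16.7. The genes of the Ragulator complex that anchors them had 178 (Lamtor1), 67.2 (Lamtor2), 120 (Lamtor3), 90.7 (Lamtor4), and 42.5 (Lamtor5). The chloride transporter genes ClC-b and ClC-c had 140 and 158, and ATP6AP2, an accessory subunit gene without a Vha name, had 87.4. By any summit, the median of these partners was near the all-gene median of 103 and below the 181 of open Vha genes. By own summits it was again 105, against 123 for Vha genes and 83.7 for all protein-coding genes. The list was chosen with earlier results of these data known, so 16 of 16 cannot be read as a trait of V-ATPase partners. These are descriptions, with no test.

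The mitochondrial ATP synthase, a rotary enzyme of the same kind that runs in the direction of ATP synthesis, was set beside it. Of its 17 genes, 14 were open, with a median strongest score of 218, against 22 of 33 and a median of 181 for Vha genes. Among all protein-coding genes, 60.0% were open, with a median of 103. By own summits the medians were 140 for 13 ATP synthase genes, 123 for 20 Vha genes, and 83.7 for all protein-coding genes. The highest scores were 751 at ATPsynbeta, where the gene's own summit had 21.9, 441 at ATPsynF, and 367 at ATPsyngamma. The 3 genes without a summit, ATPsynCF6L, ATPsynGL, and ATPsynepsilonL, have symbols that end in L, but so does ATPsynbetaL, which had a weak summit of 7.93 nearer to another gene. Low scores were not confined to such symbols. ATPsyndelta had 1.38, the lowest of the 14, sun had 12.2, and ATPsynO had 29.0. 

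Of 10 blood cell markers, 7 were open, near the 60.0% of all protein-coding genes, with a median strongest score of 40.4 against 103 for all open genes. By own summits the medians were 39.4 over 6 markers and 83.7 for all protein-coding genes with one. They ran from 14.03 at Pxn to 513 at Pvr, and srp, the GATA factor of hemocytes, had 122. The gene ush had 183, but 38.4 by its own summits, while eater had 40.4 and Nplp2 had 31.9. Hml had a score of 33.1 with no summit of its own, and NimC1, Col4a1, and vkg had none within 500 bp. Of 10 markers of neurons, muscle, fat body, and germ line, 2 were open, elav (50.6) and nanos (152). These counts neither establish nor contradict the labelled cell line.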

How the data were processed

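ATAC-seq was done on 10 libraries of S2 cells, 2 for each of 5 RNAi groups. The authors deposited 1 list of summits called on all libraries together, with a score taken here as −log10 of the q value, from the format of the peak caller. The submitters' processing notes name Bowtie2 2.3.5.1, deepTools 3.1.3, DESeq2 1.26.0, MACS2 2.1.0.20150731, and the dm6 build, without the step each served. How reads were filtered, and whether their ends were moved to allow for Tn5, is not given in the sources used here, and such a shift could move a summit by a few bases. Depth per library is unknown.

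Gene spans came from the RefSeq Release 6 table, which gives no strand, exons, or sequence. Distances of summits to both ends of each gene, the strongest score within 500 bp, and the nearest other coding gene were computed with Python 3.11.15, numpy 2.4.6, and pandas 2.3.3, and plotted with matplotlib 3.10.9. The counting was tested on simulated data. No statistical test was made, since a pooled list has no replicates. Subunits were assigned to symbols from general knowledge. All Vha genes and all genes of the V-ATPase partner list are named, and of the ATP synthase list the 3 highest and those with no summit. Neighbors are named where they are nearer to a summit within 500 bp, overlap a Vha gene, or lie between copies. All blood cell markers are named. The open markers of other cell types, and ATPsynbetaL, ATPsyndelta, sun, and ATPsynO, are named as examples, chosen after their values were seen. The genes and lists were chosen with earlier results of these data known. Tor and nos of the lists were found as mTor and nanos. As alternatives, the distance was set to 250 or 1000 bp, or the summits were limited to the strongest of each peak, to those not under the median score, or to own summits.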

Additional observations from a re-analysis of the deposited data

How the results depend on the processing

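The number of open Vha genes was 20 at a distance of 250 bp, 23 at 1000 bp, 21 with the strongest summit of each peak, 22 with summits not under the median score, and 20 by own summits. Vha100-4 and Vha16-5 were lost at 250 bp and by own summits, Vha68-2 was lost with the strongest summit of each peak, and VhaPPA1-2 was gained at 1000 bp. The all-gene share under the same settings was 54.1, 65.7, 54.9, 50.5, and 53.0%. The median strongest score was 141, 179, 159, 181, and 123 for open Vha genes, against 95.8, 108, 102, 128, and 83.7 for all open genes. Subunits with exactly 1 open copy numbered 4, 2, 4, 3, and 4. Of 105 values of single genes under the 5 alternatives, 92 stayed within 1.5 times the reported value, 1 was higher (Vha16-1, 288 at 1000 bp) and 12 were lower. Among those, own summits gave 40.4 at Vha100-1, 33.3 at Vha26, 138.5 at Vha68-1, 24.6 at VhaAC39-2, 94.1 at VhaAC45, and 21.7 at VhaM9.7-a. At 250 bp, Vha36-2 had 18.3 and Vha16-1 74.0, and with the strongest summit of each peak Vha16-1 had 7.07. Part of this stability was fixed in advance. The lowest reported score, 29.0, is above the median of the list, 21.9, so the limit at that median could change no value. A distance of 1000 bp could only raise a score. The settings of 250 bp, strongest summit of each peak, and own summits could only lower it. The alternative that counts the start of a gene alone was not run, because it needs the strand, nor were motif and protein comparisons, which need sequence. No paired analysis was possible because replicates are not separate in the pooled list.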

Other observations

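A strong summit of 425 stood between Vha68-3 and Yip1d1 on 2L, at position 12987383, away from the ends of both genes. It was higher than any summit within 500 bp of the Vha68 copies, whose strongest was 277. Which gene it acts on, if any, was not tested.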
